A study of Mus musculus with 4 samples.

Results

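The genes described here are 34 components of the basement membrane, namely laminin chains, type IV collagen chains, nidogens, the proteoglycans perlecan and agrin, and proteins that bind, crosslink or anchor them. They were taken by symbol from a written list. Of the 34 symbols, 33 were among the 24421 gene symbols of the count table, and Hmcn2 was not listed. Enough reads for a test, meaning at least 2 counts per 1000000 reads (CPM) in at least 2 libraries, were found for 29 of the 33.

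Basement membranes are thin sheets of matrix that wrap muscle fibres, vessels, nerves and fat cells. Laminins, trimers of an alpha, a beta and a gamma chain, polymerise on the cell surface through receptors such as dystroglycan and integrins. Type IV collagen, also a trimer, forms a crosslinked network of its own, and nidogens and perlecan tie it to the laminin network. In skeletal muscle, fibroblasts of the interstitium are known to supply type IV collagen and nidogen to the sheet around the fibres.

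Bulk RNA was sequenced from fibro-adipogenic progenitors (FAPs), stromal cells of the muscle interstitium, sorted from each of 2 wild-type mice into a DPPIV+ and a DPPIV- fraction, which gave 4 libraries. Both fractions were viable CD31- CD45- Sca1+ cells and differed in surface DPPIV, the product of Dpp4. All libraries came from mice given a CSF1R inhibitor for 3 weeks and then a regular diet for 3 days, a treatment that depletes macrophages and lets them return, so no library shows these genes without it. The labels name the tibialis anterior and a NEBNext Ultra II stranded kit, whereas the study's methods describe muscle of both hindlimbs and a TruSeq stranded kit. Mouse 1 is the animal with the lower number in the labels, and mouse 2 the other.

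The 4 libraries held between 18240110 and 20879405 reads on genes, so that 3 reads corresponded to 0.144 to 0.164 CPM. Dpp4 had 89.6 and 39.6 CPM in the DPPIV- libraries and 726 and 574 CPM in the DPPIV+ libraries, and its fitted log2 fold change of 3.41 followed the sort. Pdgfra, a receptor that marks FAPs, lay between 1157 and 1654 CPM in all 4 libraries. Pecam1, the gene of CD31, lay between 11.2 and 20.4 CPM, and Ptprc, the gene of CD45, between 6.41 and 9.73 CPM, although both proteins were used to remove cells. In bulk libraries, fewer cells of a type and less RNA per cell cannot be told apart.

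Basement membrane genes took 4.77% and 4.46% of all reads in the DPPIV- libraries and 3.94% and 3.95% in the DPPIV+ libraries, with mouse 1 given first here and in all pairs of values. Their summed level was lower in the DPPIV+ library of each mouse, by log2 ratios of -0.25 for mouse 1 and -0.12 for mouse 2. Between 67.8% and 68.4% of these reads belonged to Sparc, Col4a1, Nid1, Hspg2 and Col4a2 in every library. Scaled to exon length, Sparc stood first, at 2514 CPM per kb averaged over the 4 libraries. Col4a1 followed at 797 and Nid1 at 769 CPM per kb, then Col4a2 at 482, Smoc2 at 457.5, Lamc1 at 388 and Hspg2 at 357 CPM per kb. The order of Col4a1 and Nid1 depended on the fraction, since Col4a1 had 1003 and Nid1 603.5 CPM per kb in DPPIV- FAPs, against 591 and 934 CPM per kb in DPPIV+ FAPs. The lowest levels were those of Lama1 and Frem2, at 0.0259 and 0.0131 CPM per kb.

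**Figure D1:**
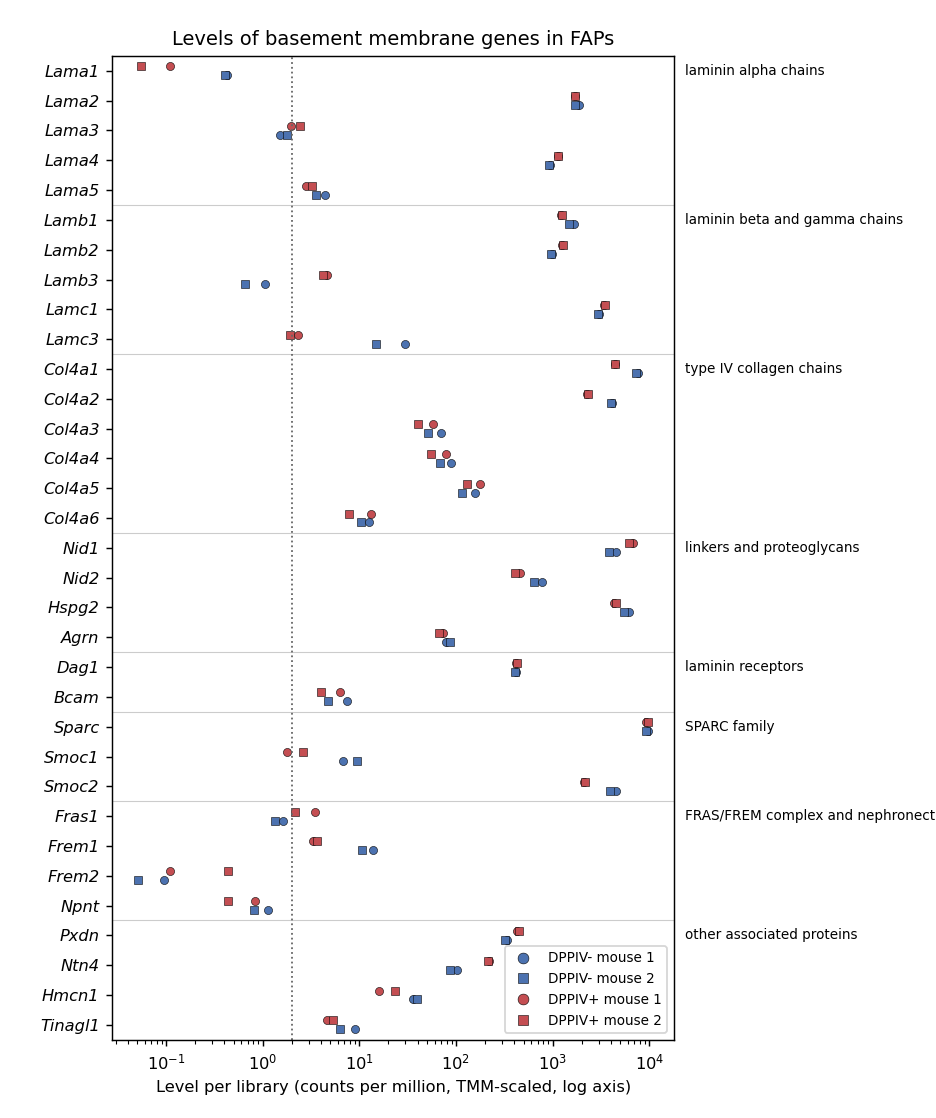
Level of each of the 33 listed genes in the 4 libraries, in TMM-scaled CPM on a log axis, grouped by role, with DPPIV- FAPs in blue, DPPIV+ FAPs in red, circles for mouse 1, squares for mouse 2 and a dotted line at 2 CPM. Levels span from 0.0510 CPM for Frem2 to 9804 CPM for Sparc, and the red and blue points of Lamc3, Frem1, Smoc1 and Lamb3 lie far apart.

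Between the fractions, 9 of the 29 tested genes were higher in DPPIV+ FAPs and 14 were lower (edgeR's quasi-likelihood test with mouse as a block, Benjamini-Hochberg adjusted p under 0.05 over 11588 genes). That is 79.3% of the tested genes, beside 33.0% of all genes tested, of which 15.9% were higher and 17.2% lower. The share of all genes was not matched for level or length, and the cause of the difference was not tested. The 23 called genes kept 1 direction in both mice, and for 20 of them the levels did not overlap between fractions. Both counts come from the libraries that gave the calls, so neither is a separate check. Of the 29 tested genes, 9 lay wholly higher and 13 wholly lower in DPPIV+ FAPs, beside 27.8% and 28.6% of all genes, 56.3% together. The median log2 fold change of the 29 genes was -0.23, against -0.00 for all genes, and with offsets for GC content and length it was -0.11, against 0.03 for all genes. Under DESeq2's Wald test with the same adjustment, 6 were higher and 10 lower, beside 16.6% of all genes (7.97% higher, 8.59% lower). Against a 1.5-fold change, edgeR called Lamb3 and Ntn4 higher and Lamc3, Col4a1, Col4a2, Smoc1, Smoc2, Frem1 and Hmcn1 lower, beside 9.42% of all genes. Lamb3 and Fras1 reached the filter in DPPIV+ libraries alone and so had to differ to be tested.

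**Figure D2:**
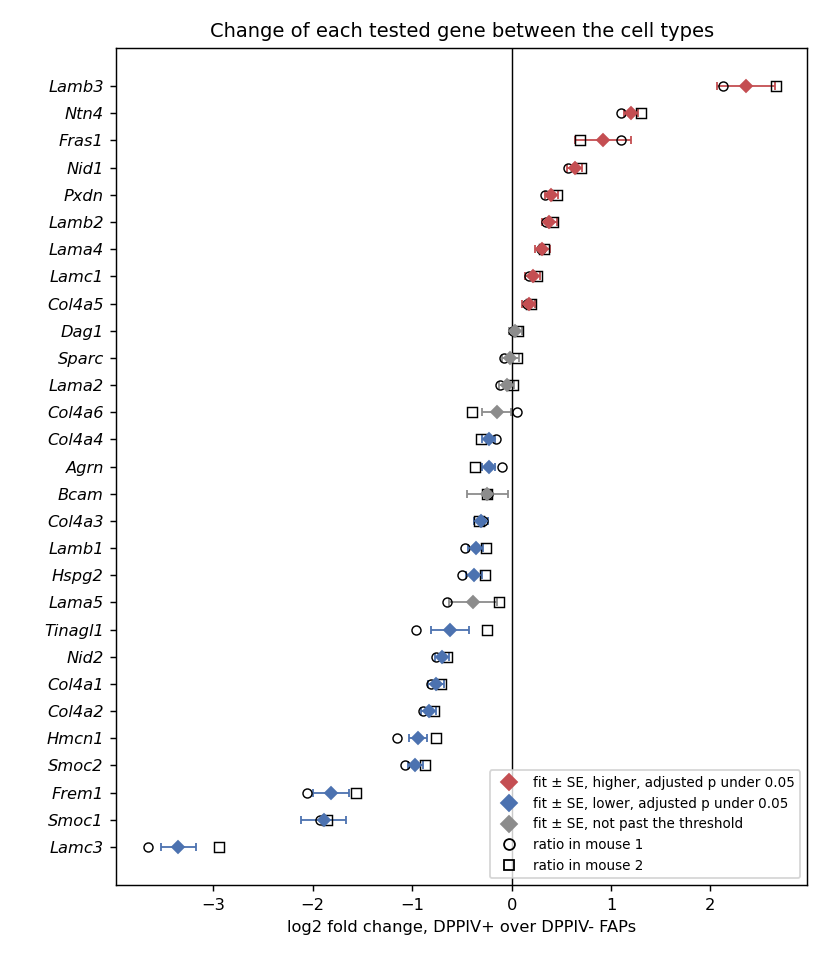
Log2 fold change of the 29 tested genes, DPPIV+ over DPPIV- FAPs, as the fitted value with its standard error (filled diamonds, red higher, blue lower, grey not past the threshold) and the ratio within each mouse (open circles mouse 1, open squares mouse 2). Lamc3 has the lowest value at -3.35 and Lamb3 the highest at 2.36, and for every called gene both mice lie on the same side of 0.

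Among laminin alpha chains, Lama4 was higher in DPPIV+ FAPs while Lama2 did not pass the test. Lama2 encodes the chain of the laminin that surrounds muscle fibres, and Lama4 the chain typical of vessels, nerves and fat. Lama4 had 932 and 912 CPM in the DPPIV- libraries, and 1143 and 1144 CPM in the DPPIV+ libraries. The fractions did not overlap, and the log2 fold change was 0.31 (standard error, SE, 0.07, edgeR adjusted p = 6.64e-05). Lama2 had 1871 and 1694 CPM in DPPIV- FAPs and 1724 and 1716 CPM in DPPIV+ FAPs. These ranges overlapped, and the 95% interval of the log2 fold change ran from -0.19 to 0.09. Per length, Lama2 made up 58.6% ± 1.33 (SD, n = 2) of laminin alpha reads in the DPPIV- libraries and 52.5% ± 0.114 in the DPPIV+ libraries, and Lama4 went from 41.1% ± 1.34 to 47.3% ± 0.0876. The other alpha chains together stayed far below both. Lama5, a chain of mature vessel and epithelial membranes, had 4.43 and 3.52 CPM in DPPIV- FAPs and 2.83 and 3.23 CPM in DPPIV+ FAPs, with an interval from -0.86 to 0.08. Lama3 and Lama1, both best known from epithelia, were under the filter, Lama3 with 32 to 44 reads a library and Lama1 with 9 and 8 reads in DPPIV- and 2 and 1 in DPPIV+ libraries.

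The beta chains changed in opposite directions. Lamb1, the widely expressed beta chain, had 1679 and 1487.5 CPM in DPPIV- FAPs and 1213.5 and 1244 CPM in DPPIV+ FAPs. Lamb2, the chain known from neuromuscular junctions and vessels, had 979 and 954.5 CPM in DPPIV- FAPs and 1242 and 1277 CPM in DPPIV+ FAPs. For both genes the fractions did not overlap, and the log2 fold changes were -0.36 for Lamb1 (SE 0.07, edgeR adjusted p = 3.31e-06) and 0.38 for Lamb2 (SE 0.07, edgeR adjusted p = 6.19e-07). Per length, the ratio of Lamb1 to Lamb2 was 1.05 and 0.956 in the DPPIV- libraries, close to equal, and 0.599 and 0.598 in the DPPIV+ libraries. Lamb2 thus went from 49.9% ± 1.69 to 62.4% ± 0.0523 of laminin beta reads per length (SD, n = 2). The epithelial chain Lamb3 stood at 22 and 13 reads in DPPIV- and 83 and 77 reads in DPPIV+ libraries, or 1.05, 0.663, 4.60 and 4.22 CPM. This was a log2 fold change of 2.36 (SE 0.29, edgeR adjusted p = 1.38e-14) at a level of at most 0.213% of the beta chain reads per length.

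Of the gamma chains Lamc1 and Lamc3, Lamc1, the partner in most laminins, took 99.0% or more of their joint reads per length in both fractions on average. It had 3003 and 2939.5 CPM in DPPIV- FAPs and 3386 and 3497 CPM in DPPIV+ FAPs, and the fractions did not overlap. The small log2 fold change of 0.21 (SE 0.08) had an adjusted p of 0.0192 in edgeR, 0.0584 in DESeq2 and 0.165 in edgeR without the mouse block. Lamc3 (ENSMUSG00000026840.14, chr2:31887291-31946539), a gamma chain of restricted expression, had the largest change of all 29 genes. It had 29.5 and 14.7 CPM in DPPIV- FAPs and 2.33 and 1.92 CPM in DPPIV+ FAPs. Every DPPIV- library lay over every DPPIV+ library, and the log2 fold change was -3.35 (SE 0.17, edgeR adjusted p = 7.31e-79), with -3.66 for mouse 1 and -2.94 for mouse 2. Lamc3 also differed between the animals, with DPPIV- FAPs of mouse 1 higher than those of mouse 2. Of its exon bases, 382 lie opposite an exon of Gm13441 on the other strand, and whether the counting used the strand is not given in the sources used here.

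**Figure D3:**
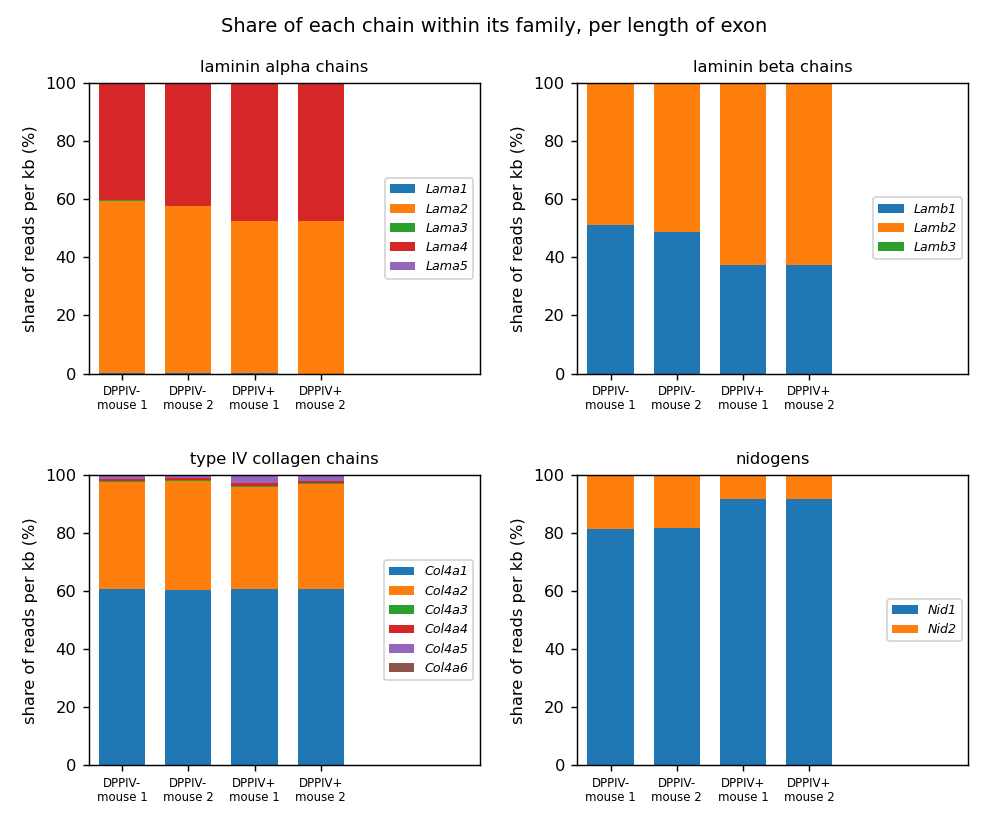
Share of each chain in the reads per kb of exon of its family (bars sum to 100%), for laminin alpha chains, laminin beta chains, type IV collagen chains and nidogens, in each of the 4 libraries. Lama4, Lamb2 and Nid1 take a larger share in both DPPIV+ libraries, while Col4a1 stays at about the same share of type IV collagen reads in all 4.

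Type IV collagen was lower in DPPIV+ FAPs through its major pair of chains, Col4a1 and Col4a2, which form the trimer found in nearly all basement membranes. Col4a1 (ENSMUSG00000031502.11, chr8:11198423-11312826) had 7739 and 7228 CPM in DPPIV- FAPs and 4412 and 4415 CPM in DPPIV+ FAPs. Col4a2 (ENSMUSG00000031503.13, chr8:11312805-11449287) had 4162 and 4017 CPM in DPPIV- FAPs and 2248.5 and 2344 CPM in DPPIV+ FAPs. Neither gene overlapped between the fractions. Col4a1 had a log2 fold change of -0.76 (SE 0.08, edgeR adjusted p = 6.70e-20) and Col4a2 of -0.83 (SE 0.08, edgeR adjusted p = 5.66e-26), which are levels 41.0% and 43.9% lower. Their proportion hardly moved, with 1.65 and 1.60 reads per length of Col4a1 for each of Col4a2 in DPPIV- FAPs and 1.74 and 1.67 in DPPIV+ FAPs. All 6 chains together had 1706 and 1605 CPM per kb in DPPIV- FAPs and 972 and 975 CPM per kb in DPPIV+ FAPs.

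The 6 genes lie as 3 head-to-head pairs, transcribed in opposite directions from adjacent starts, on mouse chromosomes 8, 1 and X (GENCODE release M21 on GRCm38). Col4a1 and Col4a2 share 22 bases of their first exons, Col4a4 and Col4a3 are 71 bases apart, and Col4a6 and Col4a5 are 1308 bases apart. The shared or intervening bases of the close pairs are printed here because the levels of the genes in each pair are given above or below. They are from the plus strand of GRCm38.p6 in RefSeq, at chr8:11312805-11312826 and chr1:82586850-82586920, with the GC box GGGCGG, searched on both strands, in capitals.
Col4a1-Col4a2 overlap: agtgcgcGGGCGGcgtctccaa
Col4a4-Col4a3 spacer: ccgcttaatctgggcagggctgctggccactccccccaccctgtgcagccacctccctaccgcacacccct
The overlap was 72.7% G or C and held 1 GC box, and windows of its length and position were not counted over all genes. The spacer was 69.0% G or C and held no GC box, no CCAAT and no TATAAA on either strand. In the last 71 bases before a start, the length of the spacer, GGGCGG was found in 20.7%, CCAAT in 13.3% and TATAAA in 4.41% of 32851 windows of all genes. In windows from 250 bases before to 50 bases after a start, the shares were 35.7%, 37.4% and 13.6%. Of 30 such windows of the 24 basement membrane genes that matched, 18 held GGGCGG, 11 held CCAAT and 0 held TATAAA.

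The minor chains, known from the basement membranes of kidney, lung and smooth muscle, had smaller log2 fold changes and varied between the animals. Col4a3 had 70.5 and 51.2 CPM in DPPIV- FAPs and 57.75 and 40.8 CPM in DPPIV+ FAPs. Col4a4 had 88.6 and 67.65 CPM in DPPIV- FAPs and 79.4 and 54.6 CPM in DPPIV+ FAPs. Within each mouse both genes were lower in DPPIV+ FAPs, but the fractions overlapped across mice. The log2 fold changes were -0.31 for Col4a3 (SE 0.07) and -0.23 for Col4a4 (SE 0.07). Neither call was kept in DESeq2, which also models the mouse, or in edgeR without the mouse block. The adjusted p of Col4a3 was 8.71e-05 in edgeR, 0.123 in DESeq2 and 0.365 in edgeR without the mouse block, and that of Col4a4 was 0.00272, 0.286 and 0.516. Col4a5, the most abundant minor chain, was the one type IV collagen gene called higher, with 159 and 114 CPM in DPPIV- FAPs and 176 and 130.5 CPM in DPPIV+ FAPs. The log2 difference was 0.17 (SE 0.07), with an adjusted p of 0.0314 in edgeR, 0.369 in DESeq2 and 0.63 in edgeR without the block. Its neighbour Col4a6 had 12.6 and 10.3 CPM in DPPIV- FAPs and 13.1 and 7.83 CPM in DPPIV+ FAPs, with a 95% interval of the log2 fold change from -0.44 to 0.14.

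All 4 minor chains were lower in mouse 2 than in mouse 1 in both fractions. The log2 ratios of mouse 2 to mouse 1 were -0.48 for Col4a3, -0.46 for Col4a4, -0.45 for Col4a5 and -0.50 for Col4a6, with edgeR adjusted p values of 1.59e-09, 8.28e-10, 1.03e-09 and 0.0105 for the mouse term. Col4a1 and Col4a2 had log2 ratios of -0.05 and 0.00 between the mice, with adjusted p values of 0.809 and 0.983 in edgeR. For each minor chain the log2 ratio between the mice was larger in size than the log2 fold change between the fractions, and for Col4a1 and Col4a2 it was smaller. Over all 29 genes the mouse term was called for 8, beside 8.98% of all genes. Lower in mouse 2 were also Lamc3, Nid2 and Bcam (4.51% of all genes were lower in mouse 2), and Hmcn1 was higher. DESeq2's Wald test called 3 of the 8, namely Col4a3, Col4a4 and Col4a5. The share of all genes with a mouse call in DESeq2 was not counted. Age, sex and day of sorting of the 2 animals were not compared here.

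**Figure D4:**
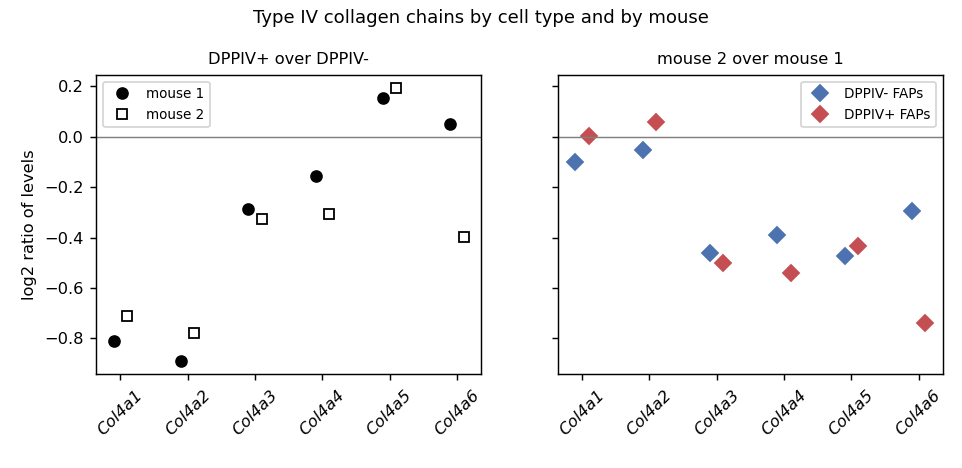
Log2 ratios of the 6 type IV collagen genes, at left DPPIV+ over DPPIV- FAPs in mouse 1 (filled circles) and mouse 2 (open squares), at right mouse 2 over mouse 1 in DPPIV- FAPs (blue) and DPPIV+ FAPs (red). Col4a1 and Col4a2 lie at -0.71 or lower at left and near 0 at right, and Col4a3 to Col4a6 lie between -0.29 and -0.74 at right.

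The nidogens, which link laminin to type IV collagen and perlecan, changed in opposite directions. Nid1 (ENSMUSG00000005397.8, chr13:13437551-13512269) had 4533.5 and 3847 CPM in DPPIV- FAPs and 6730.3 and 6236 CPM in DPPIV+ FAPs. Nid2 (ENSMUSG00000021806.4, chr14:19751265-19811787) had 770 and 639 CPM in DPPIV- FAPs and 455 and 408 CPM in DPPIV+ FAPs. Neither gene overlapped between the fractions. The log2 fold changes were 0.63 for Nid1 (SE 0.08, edgeR adjusted p = 2.46e-14) and -0.70 for Nid2 (SE 0.07, edgeR adjusted p = 7.29e-23). Reads per length of Nid1 were 4.39 and 4.48 times those of Nid2 in the DPPIV- libraries and 11.02 and 11.4 times in the DPPIV+ libraries. Both nidogens together had 802 and 678 CPM per kb in DPPIV- FAPs and 1057 and 977 CPM per kb in DPPIV+ FAPs. Nid2 shares 437 exon bases with Rtraf and Nid1 shares 143 with Gm48682, both on the opposite strand. The same holds for 631 bases of Lama2, 563 of Col4a3, 399 of Hmcn1, 197 of Lama3, 159 of Fras1 and 52 of Bcam. It also holds for 43 bases of Col4a2, besides the 22 that it shares with Col4a1. Reads of such overlaps cannot be told apart without strand.

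The large heparan sulphate proteoglycans were both lower in DPPIV+ FAPs, by calls that depended on the processing. Hspg2, the gene of perlecan, had 6117 and 5437 CPM in DPPIV- FAPs and 4329 and 4527.5 CPM in DPPIV+ FAPs. The fractions did not overlap, and the log2 fold change was -0.38 (SE 0.08, edgeR adjusted p = 9.42e-06). After offsets for GC content and length it was -0.10 (edgeR adjusted p = 0.338). Agrn, the gene of agrin, which clusters acetylcholine receptors at the neuromuscular junction and in other forms binds laminin to dystroglycan, had 78.7 and 86.6 CPM in DPPIV- FAPs and 73.7 and 67.0 CPM in DPPIV+ FAPs. Agrn had a log2 fold change of -0.23 (SE 0.07), with an adjusted p of 0.00204 in edgeR and 0.303 in DESeq2.

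The laminin receptors of the list did not pass the test. Dag1, the gene of dystroglycan, had 417 and 407 CPM in DPPIV- FAPs and 421.5 and 425 CPM in DPPIV+ FAPs, and the 95% interval of its log2 fold change ran from -0.09 to 0.17. Bcam, a cell surface receptor for laminins that contain the Lama5 chain, had 7.39 and 4.75 CPM in DPPIV- FAPs and 6.26 and 4.0 CPM in DPPIV+ FAPs, with an interval from -0.64 to 0.15.

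The SPARC family, calcium-binding matricellular proteins, held 2 genes that were lower in DPPIV+ FAPs and 1, Sparc, that did not pass the test. Sparc had 9804 and 9316 CPM in DPPIV- FAPs and 9292 and 9674.5 CPM in DPPIV+ FAPs. These overlapped, and the 95% interval of the log2 fold change ran from -0.18 to 0.15. Smoc2 (ENSMUSG00000023886.10, chr17:14279506-14404790) had 4485.5 and 3941 CPM in DPPIV- FAPs and 2133 and 2161 CPM in DPPIV+ FAPs. Smoc2 had a log2 fold change of -0.97 (SE 0.08, edgeR adjusted p = 1.01e-34), a level 48.9% lower. Smoc1, known as a modulator of BMP signalling, had 6.77 and 9.54 CPM in DPPIV- FAPs and 1.77 and 2.63 CPM in DPPIV+ FAPs. The fitted difference was -1.89 on the log2 scale (SE 0.22, edgeR adjusted p = 6.58e-16), and for both Smoc genes the fractions did not overlap.

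Fras1, Frem1 and Frem2 encode proteins of a complex that anchors epithelial basement membrane to the underlying matrix. Frem1 had 13.9 and 10.7 CPM in DPPIV- FAPs and 3.33 and 3.61 CPM in DPPIV+ FAPs, and the fitted log2 fold change was -1.82 (SE 0.18, edgeR adjusted p = 1.07e-21). Fras1 was called in the other direction, with 34 and 26 reads in DPPIV- and 63 and 39 reads in DPPIV+ libraries and a log2 fold change of 0.92 (SE 0.29). This call had an adjusted p of 0.0051 in edgeR and 0.389 in DESeq2. Frem2, with 1 to 8 reads a library, and Npnt, the gene of the integrin ligand nephronectin, with 8 to 24 reads, were under the filter. A change of either was not tested at this depth.

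Of the remaining associated proteins, a crosslinking enzyme and a netrin were higher and 2 others lower in DPPIV+ FAPs. Ntn4 (ENSMUSG00000020019.4, chr10:93640681-93747207), a netrin that binds laminin and can disrupt laminin networks, had 104 and 86.5 CPM in DPPIV- FAPs and 222 and 214 CPM in DPPIV+ FAPs. No library of one fraction overlapped those of the other, and the log2 fold change was 1.20 (SE 0.07, edgeR adjusted p = 3.11e-68), or 2.30-fold. Pxdn, the peroxidasin that forms sulfilimine bonds in type IV collagen, had 341 and 325 CPM in DPPIV- FAPs and 431 and 447 CPM in DPPIV+ FAPs. The fitted log2 fold change was 0.40 (SE 0.07, edgeR adjusted p = 3.38e-08), opposite in sign to those of Col4a1 and Col4a2. Hmcn1, the gene of hemicentin, a giant protein that joins adjacent basement membranes, had 35.7 and 39.7 CPM in DPPIV- FAPs and 16.1 and 23.5 CPM in DPPIV+ FAPs. The log2 fold change was -0.94 (SE 0.09, edgeR adjusted p = 4.40e-23). Tinagl1, a matricellular protein that binds laminin and integrins, had 8.97 and 6.33 CPM in DPPIV- FAPs and 4.60 and 5.31 CPM in DPPIV+ FAPs. The fit gave a log2 fold change of -0.62 (SE 0.19), with -0.96 for mouse 1 and -0.25 for mouse 2, with an adjusted p of 0.00552 in edgeR and 0.313 in DESeq2.

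Other genes of basement membrane biology were read from 6 further lists in the same fit. Of 7 tested other components, 2 were higher and 5 lower in edgeR, and 1 and 5 in DESeq2. Col15a1, a collagen between basement membranes and the interstitium, was the most abundant, with 3220 and 3362 CPM in DPPIV- FAPs and 950 and 1124 CPM in DPPIV+ FAPs. Col15a1 had a log2 fold change of -1.67 (SE 0.08, edgeR adjusted p = 1.56e-102). Egflam, the gene of pikachurin, which reached the filter in DPPIV- libraries alone and so had to differ to be tested, fell by 2.33 and Vwa1, a matrix protein gene also known as WARP, by 0.91, while Papln, the gene of papilin, rose by 2.34 on the log2 scale. Frem3 and Tinag had 0 reads in all libraries, which allows up to 0.164 CPM.

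Receptors also moved both ways, with 2 of 9 tested higher and 5 lower in edgeR, and 2 and 3 in DESeq2. Among the integrin alpha chains, the log2 fold changes were -2.23 for Itga8, the nephronectin receptor chain, -1.26 for Itga7, a laminin receptor chain of muscle, -1.26 for Itga1, a receptor chain for collagen and laminin, and 1.79 for the collagen receptor chain Itga2. Itgb1, the beta chain that all 4 pair with, did not pass the test, with 734 to 791.5 CPM over the 4 libraries. In the dystroglycan complex, 4 of 9 tested genes were higher and 3 lower in edgeR, and 3 and 2 in DESeq2. Dtna, the gene of alpha dystrobrevin, rose by 2.87 but had reached the filter in DPPIV+ libraries alone. Utrn, the gene of utrophin, rose by 0.63 and the syntrophin gene Sntb2 by 0.50, while the sarcoglycan gene Sgcd fell by 0.90 on the log2 scale. None of the 13 tested genes that glycosylate dystroglycan was called by edgeR or DESeq2, with log2 fold changes from -0.26 to 0.18, and 1 of them had an unadjusted p under 0.05 in edgeR.

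Enzymes and chaperones that fold and export collagen were lower where they were called, with 9 of 13 lower and 0 higher in edgeR, 4 lower and 0 higher in DESeq2, and 1 higher at an unadjusted p under 0.05 in edgeR. The prolyl hydroxylase gene P4ha3 fell by 1.70, the lysyl hydroxylase genes Plod1 and Plod2 by 0.83 and 0.51, and P3h3 by 0.36 on the log2 scale. Serpinh1, the collagen chaperone, did not pass the test. Of 10 genes of basement membrane turnover, 4 were higher and 5 lower in edgeR, and 3 and 4 in DESeq2. The protease genes Mmp9 and Mmp15 had log2 fold changes of -1.17 and -0.88, and the protease inhibitors Timp2 and Timp1 of 0.94 and -0.78. Mmp15 was not called by DESeq2's Wald test (adjusted p = 0.148). Timp2 had 2913 and 2655 CPM in DPPIV- FAPs and 5468 and 5206 CPM in DPPIV+ FAPs, the highest level of the turnover list in DPPIV+ FAPs. Call rates of edgeR in these lists stand beside the 15.9% of all genes that were higher and the 17.2% that were lower. Those of DESeq2 stand beside 7.97% higher and 8.59% lower.

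**Figure D5:**
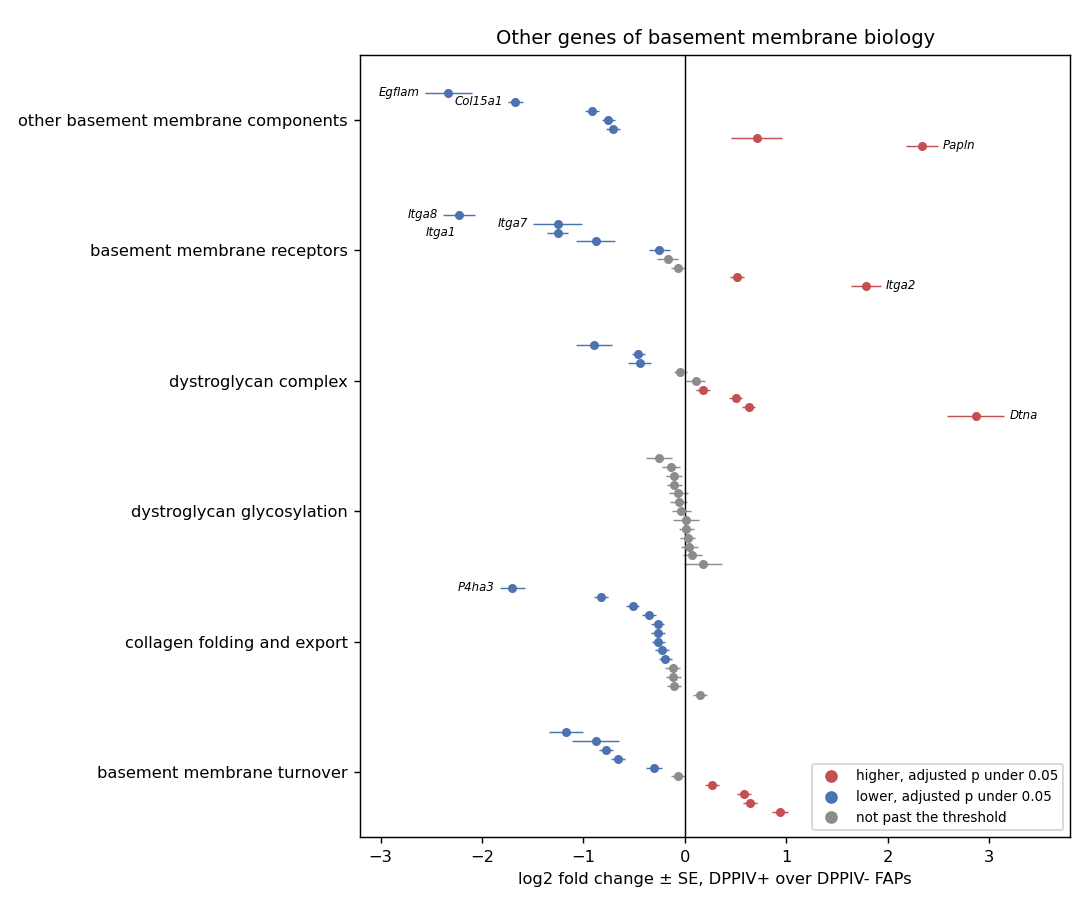
Log2 fold change with standard error, DPPIV+ over DPPIV- FAPs, of each tested gene in 6 lists of other basement membrane genes, red where higher, blue where lower and grey where not past the threshold. The outermost genes are named, the glycosylation list lies within -0.26 to 0.18, and called genes of collagen folding and export all lie at or under -0.19.

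Markers of vessel cells, which make Col4a1 and Col4a2 in quantity, also moved between the fractions. Of 7 mural cell markers, 6 were lower in DPPIV+ FAPs and none was higher in edgeR, beside 17.2% and 15.9% of all genes (4 and 0 in DESeq2, beside 8.59% and 7.97%). Their summed level was 151 and 152 CPM in DPPIV- FAPs and 55.5 and 70.5 CPM in DPPIV+ FAPs. The largest falls in CPM were those of Cspg4, Abcc9 and Notch3. Averaged over the mice, these had 69.55, 29.44 and 22.17 CPM in DPPIV- FAPs and 29.24, 5.776 and 7.324 CPM in DPPIV+ FAPs. Rgs5 and Myh11 moved less, with log2 fold changes of -0.42 and -0.28. Myh11 was not called and its fractions overlapped, and Rgs5 had an adjusted p of 0.439 in DESeq2. Of 8 blood endothelial markers, 5 were lower in edgeR and 0 in DESeq2, beside the same shares of all genes, while Tek rose by 1.42 on the log2 scale. Of the 5, Pecam1, Kdr and Esam had log2 ratios of -0.80, -0.95 and -1.80 for mouse 1, but -0.0006, 0.10 and -0.0092 for mouse 2. Cdh5 and Erg were lower in both mice, at -0.33 and -1.80 for mouse 1 and -0.32 and -0.63 for mouse 2. The mural marker Kcnj8 and the endothelial marker Erg reached the filter in DPPIV- libraries alone. The summed endothelial level was 261 and 190 CPM in DPPIV- FAPs and 509.5 and 465 CPM in DPPIV+ FAPs. Without Tek, a choice made after seeing the data, it was 74.9 and 41.5 CPM in DPPIV- and 43.8 and 38.9 CPM in DPPIV+ FAPs. No marker of either list was at 0 in all libraries. The part of mural and endothelial RNA in the lower values of Col4a1, Col4a2, Lamc3 and Hspg2 was not tested.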

How the data were processed

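DPPIV- and DPPIV+ FAPs of 2 mice gave 4 bulk RNA libraries. Paired-end reads were demultiplexed by the authors (bcl2fastq 2.20), aligned to mm10 with STAR and deposited as raw counts per gene symbol, with no normalization or filter. The annotation release and the use of strand are not given in the sources used here.

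Counts were compared in edgeR 4.0.16 (R 4.3.3, limma 3.58.1) by the quasi-likelihood F test, two-sided, with TMM scaling and mouse as a block, on the 11588 genes that reached 2 CPM (counts per 1000000 reads) in 2 or more libraries, with Benjamini-Hochberg adjustment and a threshold of 0.05. The mouse numbers pair the libraries because each animal gave both fractions. Across genes, which are not replicates, the differences between mice correlated at 0.434 between the fractions. With 1 residual degree of freedom per gene and prior degrees of freedom estimated as infinite, each gene took the spread of genes of its abundance (common coefficient of variation 0.0516). An exact test on 2 pairs cannot go below p = 0.5. CPM values are TMM-scaled, intervals are the log2 fold change with 95% coverage from its standard error, and ratios per mouse used a prior count of 0.125. Intervals and the limit of 3 reads cover counting error and the shared spread only. Exon lengths, identifiers, overlaps and GC content came from GENCODE M21 on GRCm38, with GC content and length for 99.6% of the tested genes.

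The genes and lists were chosen with earlier results of these data known. All 34 genes are named. One gene of the further lists is not reported here. Up to 4 called genes of largest change were named per further list, and Itgb1, Serpinh1, the levels of Col15a1 and Timp2, and the named cell markers were chosen after values were seen. The alternatives were DESeq2 1.42.0, robust moderation, no mouse block, RLE and upper-quartile scaling, no filter, 2 CPM in 3 or more libraries, a 1.5-fold test, an adjusted p under 0.01, offsets for GC content and length (loess span 0.5), and each mouse left out. The tests were first run on simulated counts. Figures were drawn with matplotlib 3.10.9 in Python 3.11.15.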

Additional observations from a re-analysis of the deposited data

How the results depend on the processing

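Of the 23 called genes, 8 (Ntn4 higher, 7 lower) kept their direction and call in all 10 alternatives with a test, and 0 reversed in any alternative or in either mouse. The 15 others lost the call at least once. Lama4, Lamb1, Lamb2, Nid1, Nid2 and Pxdn lost it against a 1.5-fold change alone, and Lamb3 was not tested with 2 CPM in at least 3 libraries, nor was Fras1. Lamc1, Col4a3, Col4a4, Col4a5, Agrn, Fras1 and Tinagl1 lost it under DESeq2, without the mouse block and against 1.5-fold, Lamc1 and Col4a5 also under upper-quartile scaling and at an adjusted p under 0.01, and Col4a4, Hspg2, Agrn and Tinagl1 with offsets for GC content and length. Hspg2 also lost it against 1.5-fold. Over all genes, 1837 were higher and 1989 lower. These counts became 923 and 995 in DESeq2, 1001 and 1119 without the block that carries the pairing by mouse, and 436 and 656 against a 1.5-fold change, where 2 basement membrane genes were higher and 7 lower. The mouse term was called for 3 of these genes in DESeq2, 5 with GC and length offsets, 5 at an adjusted p under 0.01, and 0 against 1.5-fold in edgeR (1 at an unadjusted p under 0.05). The shares of all genes with a mouse call in these settings were not counted, so these counts have no rate beside them. The median log2 fold change of the 29 genes was -0.11 with GC and length offsets, where that of all genes was 0.03, and ran from -0.25 to -0.16 when a mouse was left out. Among genes not past the threshold, values near 0 turned sign: Lama2 ran from -0.118 to 0.0188, Col4a6 from -0.396 to 0.0496 and Sparc from -0.0774 to 0.0545 when a mouse was left out, Dag1 was at -0.0037 under upper-quartile scaling and Sparc at 0.0419 with offsets. The cause of the lost calls was not tested, apart from the stricter filter, which removes genes. With 2 mice per fraction, the main edgeR standard errors and p values rest on spread borrowed from other genes, for every tested gene. Genes that did not reach 2 CPM in at least 2 libraries were not tested in the main fit.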

Other observations

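Markers of FAPs and of other cell types of muscle were read from lists in the same fit, with their part in the basement membrane values not tested. All 6 FAP markers were called, Ly6a and Cd34 higher and Pdgfra, Dcn, Gsn and Pdgfrl lower in DPPIV+ FAPs, beside 33.0% of all genes (15.9% higher, 17.2% lower), shares that stand beside each count by edgeR here. In DESeq2, the shares were 7.97% higher and 8.59% lower. The summed level of the FAP markers was 60862 and 53628.5 CPM in DPPIV- and 49097 and 49782 CPM in DPPIV+ FAPs. Of 5 tendon markers, Tnmd, Scx, Mkx and Kera were higher and Thbs4 lower in edgeR, and DESeq2 called 4 higher and 0 lower. Thbs4 had log2 ratios of -0.47 for mouse 1 and 0.08 for mouse 2, and its fractions overlapped. Tnmd, the gene of tenomodulin, had 26.7 and 30.9 CPM in DPPIV- FAPs and 52.9 and 89.35 CPM in DPPIV+ FAPs, and Scx, a tendon transcription factor, 0.858, 1.73, 3.66 and 7.83 CPM in the same order, so that Scx reached the filter in DPPIV+ libraries alone and had to differ to be tested. The summed tendon level was 1639.5 and 2147 CPM in DPPIV- and 1246 and 2386 CPM in DPPIV+ FAPs, most of it Thbs4.

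Schwann cell markers split in edgeR, with Mbp higher and Cdh19 lower among 4 tested, at summed levels from 23.9 to 31.05 CPM. DESeq2 called 0 higher and 1 lower, and Mbp had an adjusted p of 0.101 in its Wald test. Of 2 tested perineurial markers, Cldn1 was lower, having reached the filter in DPPIV- libraries alone, at sums from 15.1 to 19.1 CPM. For lymphatic endothelium, satellite cells and myofibres, 0 of 2, 0 of 1 and 0 of 4 tested markers were called by edgeR or DESeq2, with 1, 0 and 0 at an unadjusted p under 0.05 in edgeR, and the sums reached at most 8.04, 5.26 and 64.0 CPM. Of 6 leukocyte markers, 3 were lower in edgeR and 0 in DESeq2. Their sum was 308 CPM in DPPIV- FAPs of mouse 1 and 184, 193.5 and 177 CPM in DPPIV- FAPs of mouse 2 and the DPPIV+ FAPs of mouse 1 and mouse 2. Without Lyz2, a choice made after seeing the data, it ran from 55.8 to 89.1 CPM.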
